A study of Mus musculus with 15 samples.

Results

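The Notch pathway was followed through 10 of its genes in cultured adult neural stem cells (aNSCs) of the mouse. They are the receptors Notch1, Notch2 and Notch3, the ligands Dll1, Dll3 and Jag1, the target genes Hes1, Hes5 and Hey1, and the Hes family member Hes6. All 10 were found by gene ID among the 53801 genes of an RNA-seq count table of 15 libraries. The study asked how gene expression changes once aNSCs lose Trrap, a large scaffold protein that brings histone acetyltransferase complexes to promoters. 5 libraries came from untreated cultures of mice with 1 floxed and 1 intact Trrap allele (Trrap Fl/+, here Fl/+ untreated), 5 from cultures of the same 5 mice given 4-hydroxytamoxifen (Fl/+ 4-OHT), and 5 from cultures of another 5 mice with both alleles floxed, given the same drug (Trrap Fl/Fl, here Fl/Fl 4-OHT). All 10 mice were 2 months old, of C57BL6/J-129sv background, and carried the Rosa26-CreERT2 transgene, a Cre recombinase expressed from a ubiquitous locus that enters the nucleus when 4-OHT binds it. The labels give 5 days of drug, whereas the study's methods describe a shorter exposure followed by fresh medium. The Fl/+ 4-OHT cultures can therefore lose their 1 floxed allele, no library is free of the transgene, and untreated Fl/Fl cultures were not analysed here. Per the study's methods the cells were taken from the subventricular zone and grown in suspension with EGF and bFGF, so each library is a bulk culture of 1 mouse. In such bulk RNA, fewer cells that express a gene and less of its RNA per cell cannot be told apart.

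Notch receptors are membrane proteins that are cut when a Delta or Jagged ligand on a neighboring cell binds them. The last cut, by γ-secretase, frees the intracellular domain, which joins Rbpj and a Mastermind protein in the nucleus and switches on Hes and Hey genes. These encode repressors of proneural genes, and in the subventricular zone this circuit is known for holding stem cells back from neuronal differentiation.

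Between 25.7 M and 32.2 M counts were assigned in each library, and a member of the list had between 131 and 12350 counts in a library. All 10 neural stem cell markers examined (among them Sox2, Nes, Pax6 and Egfr) were detected in every group. Trrap, the targeted gene, stood at 179 to 214 CPM (counts scaled to library size) in the Fl/+ untreated and at 138 to 204 CPM in the Fl/+ 4-OHT libraries. In the Fl/Fl 4-OHT libraries of mice 27, 28, 29, 37 and 39 it stood at 92.9, 115, 142, 89.2 and 82.8 CPM. The Fl/Fl group was thus lower on average (log2 fold change -0.64, SE 0.16, edgeR quasi-likelihood adjusted p = 0.0115), but Fl/Fl mouse 29 lay inside the range of the Fl/+ 4-OHT libraries. Without mice 29, 36 and 39 the Trrap value was -0.78. The sex-linked genes of 3 mice also stood apart. Mouse 39, labelled female, had 0.313 CPM of Xist, the RNA that coats the inactive X chromosome, and 54.0 CPM of the Y-linked Ddx3y. Mouse 36, labelled male, had Y-linked transcripts together with 5.89 CPM of Xist untreated and 74.7 CPM after 4-OHT. Mouse 29 had 23.4 CPM of Ddx3y, below the 36.9 to 56.3 CPM of the other libraries that express it. Results are therefore given below with these libraries and, for part of them, also without mice 29, 36 and 39. This alternative was chosen after the data had been seen. Among the Fl/Fl mice, labelled sex and mouse number (27 to 29 male, 37 and 39 female) cannot be told apart.

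Levels of different genes were compared as CPM per kb of exon, since long transcripts collect more reads. In Fl/+ untreated cultures Hes6 was the highest at 66.6 ± 7.44 CPM per kb (SD, n = 5), followed by Hes5 at 53.9 ± 23.0, Hey1 at 34.8 ± 9.51, Dll1 at 34.3 ± 4.97 and Hes1 at 29.8 ± 7.47. Dll3 followed at 27.1 ± 9.93, Notch3 at 23.5 ± 2.02, Notch1 at 19.6 ± 1.60, Notch2 at 8.88 ± 1.26 and Jag1 at 1.89 ± 0.401 CPM per kb. From Hes6 down to Notch1 the ranges of neighbors in this order overlapped, whereas Notch1 lay above Notch2 and Notch2 above Jag1 in all 5 libraries. Dll1 and Dll3 were thus far more abundant than Jag1. The place of Hes5 differed most between the groups. It ranked 2 of the 10 in Fl/+ untreated, 8 in Fl/+ 4-OHT and 9 in Fl/Fl 4-OHT cultures, where it averaged 14.7 ± 5.00 and 7.26 ± 2.36 CPM per kb. Every untreated library had more Hes5 than any had Notch2 per kb, and every Fl/Fl 4-OHT library had less. Hes6 ranked first and Jag1 last in all 3 groups.

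**Figure D1:**
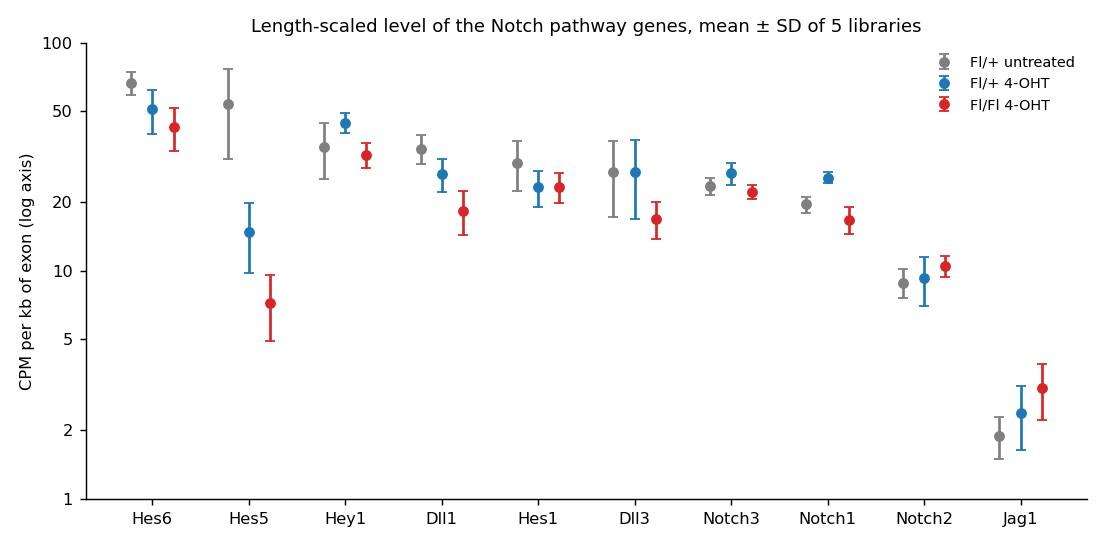
Level of each gene in CPM per kb of exon (y axis, log scale) as mean ± SD of 5 libraries, for the Fl/+ untreated (gray), Fl/+ 4-OHT (blue) and Fl/Fl 4-OHT (red) cultures, with genes ordered along the x axis by their untreated level. Hes5 moves from 53.9 to 14.7 and 7.26 CPM per kb, while Jag1 stays the lowest in each group.

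To see how loss of both Trrap alleles changed these transcripts, Fl/Fl 4-OHT cultures were compared with Fl/+ 4-OHT cultures. 6 of the 10 genes fell, and none rose. They were the receptors Notch1 and Notch3, the ligands Dll1 and Dll3, and the targets Hes5 and Hey1. Hes5 had the largest log2 fold change of the 10, at -1.005 (SE 0.28), and Notch1 the smallest adjusted p. Notch2, Jag1, Hes1 and Hes6 did not pass the test. Trrap deletion changed 31.7% of the 15036 genes tested, with 2520 higher and 2253 lower, and 15.0% were called lower. Scaling by library size alone gave 2848 higher and 1951 lower, and 4 members called, with Dll1 and Dll3 lost. Notch pathway members had a median log2 fold change of -0.35, beside 0.02 over all genes tested. In 4 of the 10 genes, all of them lower, the 5 libraries of one group did not overlap with the 5 of the other, which was so for 22.6% of all genes tested and, counting only lower genes, for 11.4%. Without mice 29, 36 and 39 (3 against 4 libraries) only Notch1 of the 10 was called, while 15.5% of all genes were, and the 6 genes kept a negative log2 fold change of -0.32 to -0.98.

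**Figure D2:**
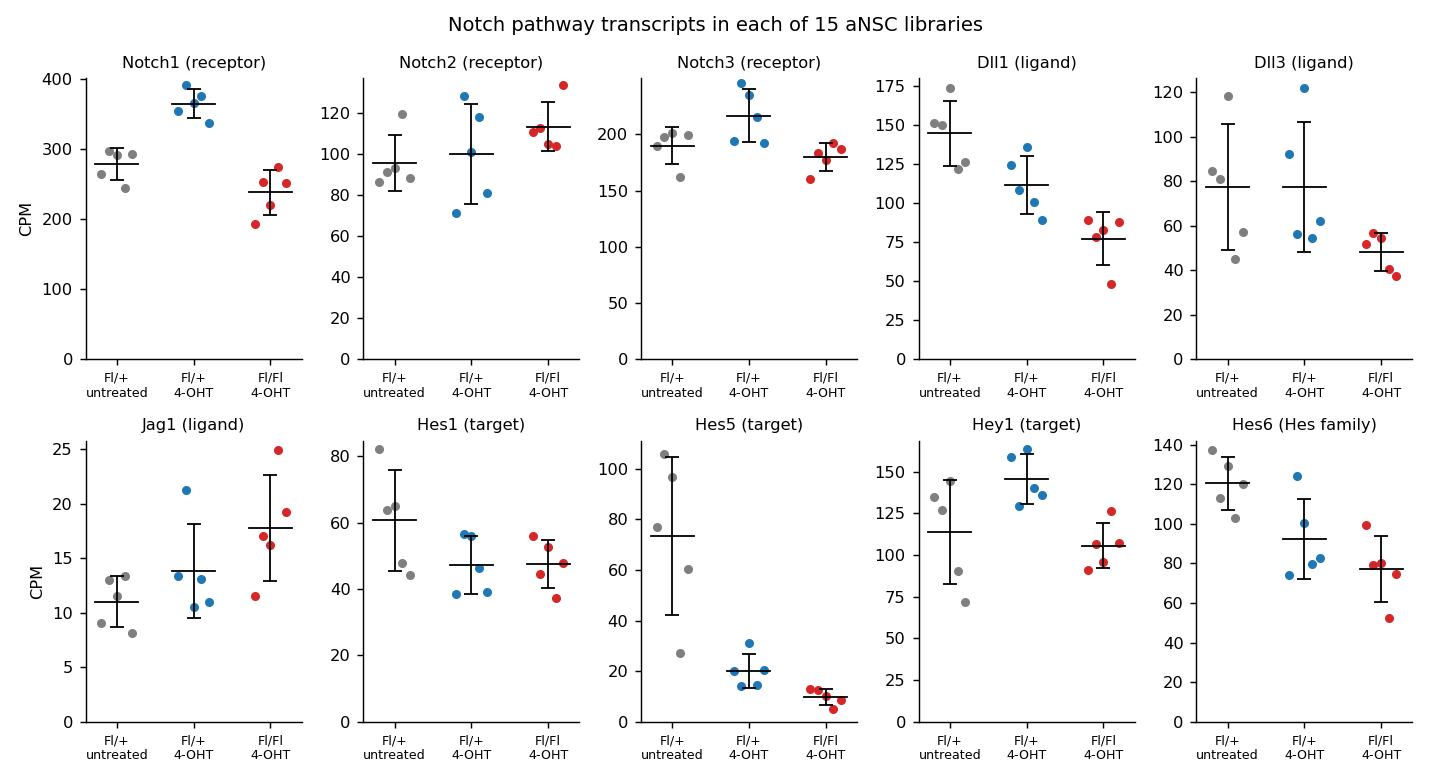
CPM of each of the 10 genes (y axes, linear from 0) in the Fl/+ untreated (gray), Fl/+ 4-OHT (blue) and Fl/Fl 4-OHT (red) cultures; each point is 1 library, ordered by mouse number, and black bars are mean ± SD of 5. Blue and red points do not overlap for Notch1, Notch3, Hes5 and Hey1, and Hes5 is lowest in the red group, at 5.06 to 12.8 CPM.

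Of the receptors, Notch1 (ENSMUSG00000026923, chr2:26457903-26516663 in GRCm38, minus strand) had the most reads. In the Fl/+ 4-OHT cultures of mice 19, 24, 26, 35 and 36 it stood at 354, 391, 366, 376 and 337 CPM. In the Fl/Fl 4-OHT cultures of mice 27, 28, 29, 37 and 39 it stood at 192, 254, 221, 274 and 251 CPM. The groups did not overlap, and the gap lay between Fl/Fl mouse 37 and Fl/+ mouse 36. The difference was 1.52-fold (log2 fold change -0.60, SE 0.094, edgeR quasi-likelihood adjusted p = 0.00100). It was called with each library left out in turn and without mice 29, 36 and 39 (log2 fold change -0.63), and it measured -0.75 within mice 19 to 29 and -0.43 within mice 35 to 39.

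Notch3 (ENSMUSG00000038146, chr17:32120820-32166852, minus strand), a receptor also known from the smooth muscle of vessels, fell by a smaller amount. Its levels were 194, 246, 235, 215 and 193 CPM in the Fl/+ 4-OHT and 160, 184, 177, 192 and 187 CPM in the Fl/Fl 4-OHT libraries, in the same order of mice. The groups did not overlap, but the highest Fl/Fl library (mouse 37) and the lowest Fl/+ library (mouse 36) were nearly level. The change came to -0.25 on the log2 scale (SE 0.087, edgeR quasi-likelihood adjusted p = 0.0445). This call was kept in 3 of 10 fits that left out 1 library. It was lost without Fl/+ mouse 24 (-0.22), 26 (-0.23) or 35 (-0.27) and without Fl/Fl mouse 27 (-0.22), 28 (-0.27), 29 (-0.26) or 39 (-0.28), and with no filter on low counts (-0.26), with the adjusted p over all alternatives between 0.0183 and 0.602. Within mice 19 to 29 the log2 fold change was -0.39 and within mice 35 to 39 it was -0.09.

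Notch2 (ENSMUSG00000027878, chr3:98013527-98150361, plus strand) did not pass the test. It measured 71.1, 129, 101, 118 and 81.2 CPM in the Fl/+ 4-OHT cultures and 111, 113, 105, 104 and 134 CPM in the Fl/Fl 4-OHT cultures. The Fl/+ cultures spread over a wider range than the Fl/Fl cultures and enclosed 4 of the 5. The fitted log2 change was 0.19 (SE 0.15, edgeR quasi-likelihood adjusted p = 0.360).

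Promoters of a pair of receptors are shown with their GC boxes, letters that the factor Sp1 is known to bind, for Notch1, which fell, and Notch2, which did not pass the test. The windows are from RefSeq (GRCm38.p6) and run 5′ to 3′ over the 250 bases before the annotated start. Capitals mark the GC box letters GGGCGG, which read CCGCCC where the match is on the opposite strand. Notch1 is chr2:26503823-26504072, minus strand, and its RefSeq start lies inside the longer GENCODE gene. Notch2 is chr3:98013288-98013537, plus strand.
Notch1: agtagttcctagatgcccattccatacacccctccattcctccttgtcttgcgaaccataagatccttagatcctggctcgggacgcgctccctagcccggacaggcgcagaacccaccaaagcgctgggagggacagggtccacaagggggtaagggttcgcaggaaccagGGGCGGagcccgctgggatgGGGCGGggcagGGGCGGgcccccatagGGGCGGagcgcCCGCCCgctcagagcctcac
Notch2: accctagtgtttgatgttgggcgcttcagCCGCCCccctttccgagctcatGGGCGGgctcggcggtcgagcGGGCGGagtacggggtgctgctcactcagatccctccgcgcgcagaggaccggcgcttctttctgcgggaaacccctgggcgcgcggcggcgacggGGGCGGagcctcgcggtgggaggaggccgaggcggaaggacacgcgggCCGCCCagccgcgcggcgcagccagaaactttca
Within 300 bases that also hold the first 50 after the start, Notch1 had 5 matches on the 2 strands together, Notch2 had 7 and Notch3 had 4. Of all 32851 promoter windows of that length, 35.7% held at least 1. Neither a difference between the changes of Notch1 and Notch2 nor any part of these letters in them was tested.

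Both Delta ligands fell. Dll1 (ENSMUSG00000014773, chr17:15367354-15376872, minus strand), a membrane ligand that activates Notch on the adjacent cell, measured 125, 108, 136, 101 and 89.4 CPM in the Fl/+ 4-OHT cultures of mice 19, 24, 26, 35 and 36. In Fl/Fl 4-OHT cultures of mice 27, 28, 29, 37 and 39 it measured 89.5, 78.2, 83.1, 48.1 and 87.7 CPM. Fl/Fl mouse 27 and Fl/+ mouse 36 were level, so the groups touched, and Fl/Fl mouse 37 lay far below the rest. On the log2 scale this was a change of -0.52 (SE 0.17, edgeR quasi-likelihood adjusted p = 0.0383). The call was lost without Fl/+ mouse 19 (-0.49), 24 (-0.54) or 26 (-0.45) or Fl/Fl mouse 28 (-0.53) and with library size scaling (-0.48, adjusted p = 0.0519 in edgeR's quasi-likelihood test), and adjusted p over all alternatives ran from 0.0143 to 0.346.

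Dll3 (ENSMUSG00000003436, chr7:28293553-28302238, minus strand) is a Delta protein that is known to act inside the cell that makes it rather than as an activating ligand. It measured 92.1, 56.4, 122, 54.5 and 62.0 CPM in the Fl/+ 4-OHT and 51.7, 56.8, 54.5, 40.3 and 37.4 CPM in the Fl/Fl 4-OHT cultures. The Fl/+ cultures of mice 19 and 26 stood well above the others, and the remaining libraries of the 2 groups lay close together. The fitted log2 change was -0.67 (SE 0.23, edgeR quasi-likelihood adjusted p = 0.0444). This call was lost without any 1 of Fl/+ mice 19 (-0.61) and 26 (-0.46) or Fl/Fl mice 27 (-0.70), 28 (-0.75), 29 (-0.73), 37 (-0.63) and 39 (-0.60). With all libraries kept it was also lost with library size scaling (-0.63), with all 15 libraries in one fit (-0.68) and with labelled sex as a covariate (-0.68), at adjusted p of 0.0545, 0.0636 and 0.0576 in edgeR's quasi-likelihood test. Over all alternatives the adjusted p ran from 0.0109 to 0.128.

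Jag1 (ENSMUSG00000027276, chr2:137081456-137116644, minus strand), the Jagged ligand, measured 13.4, 21.2, 10.5, 13.1 and 10.97 CPM in Fl/+ 4-OHT and 11.6, 17.0, 16.2, 24.9 and 19.2 CPM in Fl/Fl 4-OHT cultures. It did not pass the test (log2 fold change 0.37, SE 0.23, edgeR quasi-likelihood adjusted p = 0.234). The ranges of mouse numbers gave unlike values, -0.02 within mice 19 to 29 and 0.89 within mice 35 to 39, and a difference between them was not tested.

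Delta genes are themselves switched on by proneural factors, which bind E boxes of the form CANNTG. The upstream one of both Dll1 windows in RefSeq is shown with E boxes in capitals, for the 250 bases before the start at chr17:15376933-15377182, minus strand.
Dll1: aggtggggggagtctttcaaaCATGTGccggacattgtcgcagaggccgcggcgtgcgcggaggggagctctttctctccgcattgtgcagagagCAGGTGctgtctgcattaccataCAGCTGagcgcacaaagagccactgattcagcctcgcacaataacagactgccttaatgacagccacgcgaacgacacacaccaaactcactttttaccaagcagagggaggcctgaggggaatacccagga
It held 3 matches, which begin 229, 155 and 132 bases before the start. Such short and partly free letters are common, and 72.3% of the promoter windows held at least 1.

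Among the targets Hes5 (ENSMUSG00000048001, chr4:154960923-154962371, plus strand), a repressor that marks active Notch signaling in neural stem cells, had the largest difference. It measured 19.97, 14.3, 31.2, 14.7 and 20.4 CPM in the Fl/+ 4-OHT cultures of mice 19, 24, 26, 35 and 36. The Fl/Fl 4-OHT cultures of mice 27, 28, 29, 37 and 39 had 12.8, 12.7, 10.3, 5.06 and 8.65 CPM. The highest Fl/Fl library (mouse 27) was still below the lowest Fl/+ library (mouse 24), and mouse 37 was the lowest. The difference was 2.01-fold (log2 fold change -1.005, SE 0.28, edgeR quasi-likelihood adjusted p = 0.0176) and was called with each library left out in turn. With mice 29, 36 and 39 left out the value was -0.98 and the adjusted p 0.120, which is the highest of the 21 alternatives for this gene. It measured -0.88 within mice 19 to 29 and -1.34 within mice 35 to 39, and was called in neither range alone.

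The Hes5 promoter is shown for the letters GTGGGAA, a core that Rbpj is known to bind, on chr4:154960673-154960922, plus strand. They are in capitals and read TTCCCAC on the opposite strand.
Hes5: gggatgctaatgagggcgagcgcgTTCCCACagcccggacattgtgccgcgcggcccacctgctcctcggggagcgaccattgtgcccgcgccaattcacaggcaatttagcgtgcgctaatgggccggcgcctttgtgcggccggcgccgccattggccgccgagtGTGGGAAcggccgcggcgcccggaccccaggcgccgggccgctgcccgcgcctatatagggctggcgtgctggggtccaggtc
The 2 matches begin 226 and 83 bases before the start, on opposite strands. Of all promoter windows 6.38% held this core, and of the 8 members with a RefSeq window Hes5 was the one that held it. No window was matched for Hes1 and Hey1.

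Hey1 (ENSMUSG00000040289, chr3:8663359-8667256, minus strand), a repressor related to the Hes proteins, also fell. Its levels were 159, 130, 164, 140 and 136 CPM in Fl/+ 4-OHT and 91.2, 107, 96.0, 126 and 107 CPM in Fl/Fl 4-OHT cultures. No Fl/Fl library reached the lowest Fl/+ library, that of mouse 24, although mouse 37 came near it. The fitted log2 change was -0.45 (SE 0.099, edgeR quasi-likelihood adjusted p = 0.00593), and it was called with each library left out in turn. With mice 29, 36 and 39 left out it was again -0.45, with an adjusted p of 0.0560 in a range of 0.000411 to 0.270 over the alternatives. The value within mice 19 to 29 was -0.63 and within mice 35 to 39 -0.23.

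Hes1 (ENSMUSG00000022528, chr16:30064384-30067796, plus strand), the other classical Notch target, had a log2 fold change near 0. It measured 38.6, 56.4, 56.0, 46.2 and 39.1 CPM in Fl/+ 4-OHT and 56.0, 44.4, 52.5, 37.4 and 47.9 CPM in Fl/Fl 4-OHT cultures. The 2 sets of values ran over almost the same range (log2 fold change 0.03, SE 0.14, edgeR quasi-likelihood adjusted p = 0.907). A test of the difference between Hes1 and Hes5 was not run.

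Hes6 (ENSMUSG00000067071, chr1:91411483-91414038, minus strand) does not repress as its relatives do and is known to counter Hes1 and to favor neuronal differentiation. It had 74.0, 124, 100.4, 79.8 and 82.8 CPM in Fl/+ 4-OHT and 99.4, 79.2, 80.2, 52.6 and 74.5 CPM in Fl/Fl 4-OHT cultures. The groups overlapped widely, and the log2 fold change of -0.24 (SE 0.18) did not pass edgeR's quasi-likelihood test (adjusted p = 0.324).

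**Figure D3:**
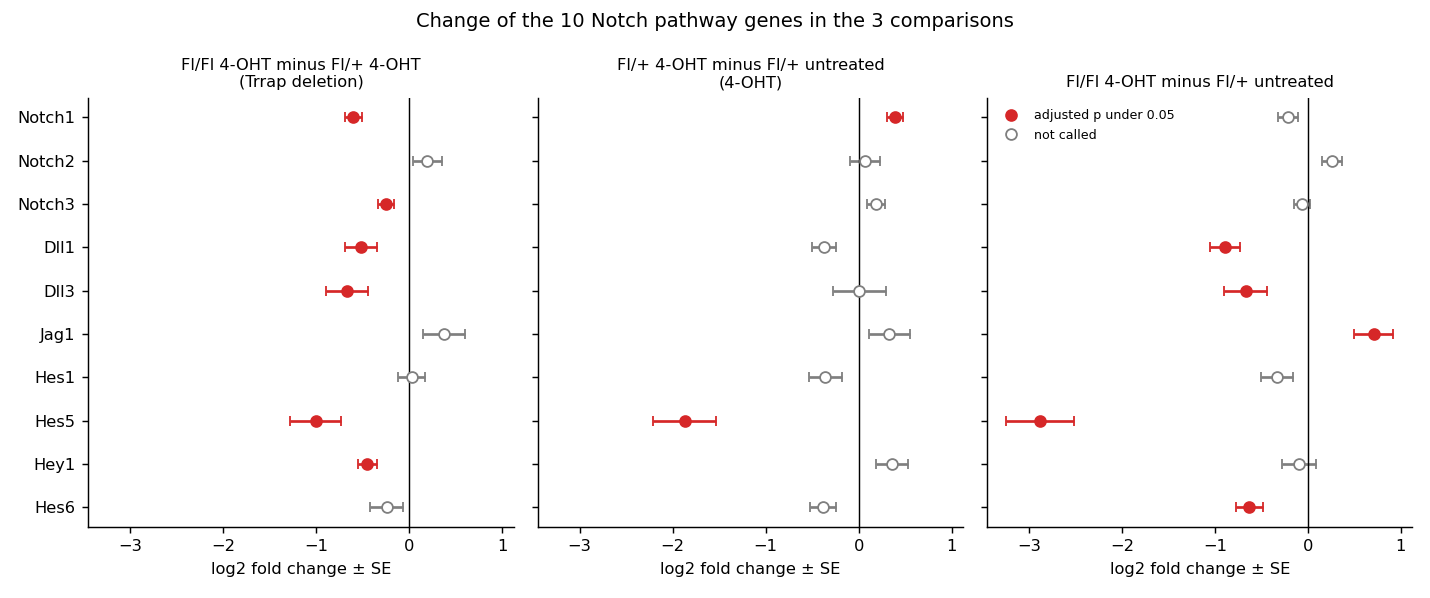
Log2 fold change ± SE (x axis) of the 10 genes (rows, by role) in the Trrap deletion comparison, the 4-OHT comparison and the one between Fl/Fl 4-OHT and Fl/+ untreated cultures; red filled points were called by edgeR at 0.05. Hes5 is the one gene with a filled point in all 3 panels, at -1.005, -1.87 and -2.88, and Notch1 has filled points on opposite sides of 0 in the first and middle panels.

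The effect of 4-OHT and of losing at most 1 Trrap allele was asked by comparing Fl/+ 4-OHT with Fl/+ untreated cultures of the same 5 mice. Hes5 fell and Notch1 rose, and the other 8 genes did not pass the test. That is 2 of 10 called, beside 13.8% of 14821 genes tested (1088 higher and 956 lower, or 1396 higher and 712 lower when scaled by library size alone). The members had a median log2 fold change of 0.04, beside -0.01 over all genes. Only for Notch1 did the groups not overlap, which was so for 12.0% of all genes tested. With the mouse number as a block, since each mouse gave both cultures, Dll1 was called as well, making 3 of 10, beside 25.7% of all genes. The same 2 genes were called without mice 29, 36 and 39, where 10.8% of all genes were. Labelled sex as a covariate added Dll1 and Hes6, making 4 of 10 beside 19.8% of all genes, and the range of mouse numbers as a covariate added Dll1, Hes6 and Hey1, making 5 of 10 beside 21.4%.

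Untreated Hes5 measured 77, 106, 96.8, 27.2 and 60.5 CPM in mice 19, 24, 26, 35 and 36, beside the 19.97, 14.3, 31.2, 14.7 and 20.4 CPM of the same mice after 4-OHT. It was lower after 4-OHT in 5 of 5 mice, with differences from -0.87 (mouse 35) to -2.84 (mouse 24) on the log2(CPM + 0.5) scale. The groups overlapped in that untreated mouse 35 lay below treated mouse 26. The fit gave 3.65-fold less Hes5 (log2 fold change -1.87, SE 0.34, edgeR quasi-likelihood adjusted p = 0.00517). It measured -2.09 within mice 19 to 29 and -1.31 within mice 35 and 36. The exact two-sided sign-flip test over the 5 mice gave p = 0.0625, which is the smallest it can give.

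Notch1 measured 265, 297, 292, 245 and 293 CPM untreated, and every one of these lay below every value after 4-OHT. It was higher in 5 of 5 mice, by 0.20 to 0.62 on the log2(CPM + 0.5) scale, and the fit gave a 1.31-fold rise (log2 fold change 0.39, SE 0.082, edgeR quasi-likelihood adjusted p = 0.0104). The receptor and the target thus changed in opposite directions.

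Dll1 measured 152, 150.2, 174, 122 and 126 CPM untreated. It was lower after 4-OHT in 5 of 5 mice, with a log2 fold change of -0.37 (SE 0.13). The adjusted p was 0.0849 in edgeR's quasi-likelihood test and 0.00633 with the mouse as a block, and over all alternatives it ran from 0.00633 to 0.183. Hey1 measured 135, 127, 144, 90.6 and 71.7 CPM untreated. It was higher after 4-OHT in 5 of 5 mice, yet the values were 0.03 to 0.23 in mice 19, 24 and 26 and 0.63 and 0.92 in mice 35 and 36 on the log2(CPM + 0.5) scale. Its log2 fold change of 0.36 (SE 0.18) was not called (edgeR quasi-likelihood adjusted p = 0.199, 0.0503 with the block).

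**Figure D4:**
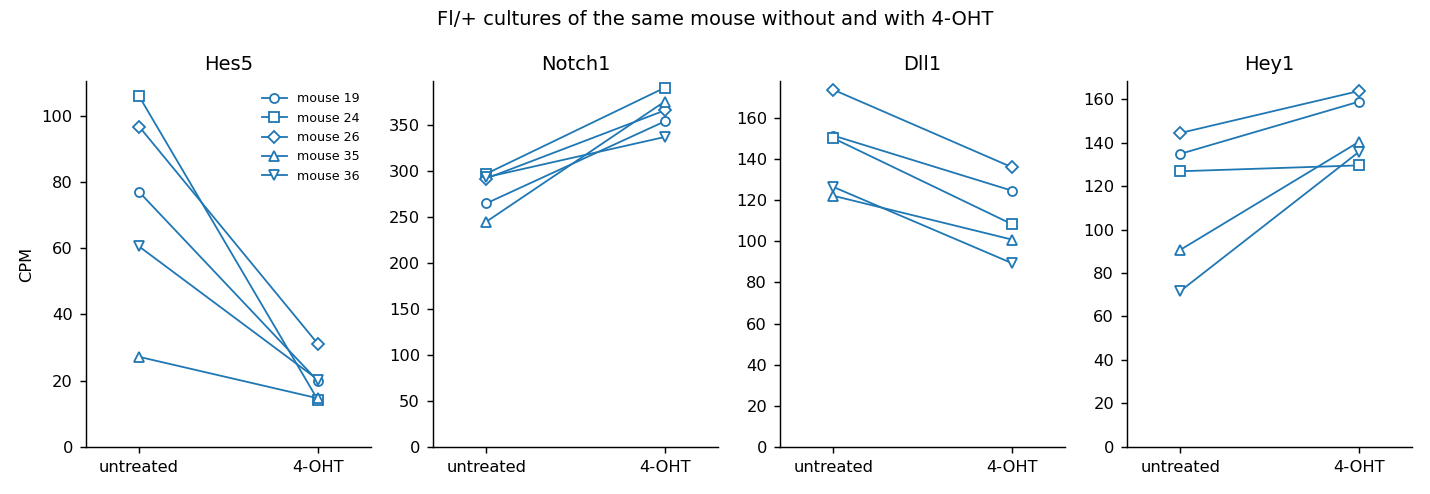
CPM (y axes, linear from 0) of Hes5, Notch1, Dll1 and Hey1 in the untreated and the 4-OHT culture of each Fl/+ mouse; a line joins the 2 cultures of 1 mouse. The 5 lines fall for Hes5 and Dll1 and climb for Notch1 and Hey1, and the Hes5 line of mouse 35 starts lowest, at 27.2 CPM.

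The remaining members did not pass the test with or without the block. Untreated Hes6 ran from 103 to 138 CPM with a median of 120 (log2 fold change -0.38, edgeR quasi-likelihood adjusted p = 0.0950), and Hes1 from 44.3 to 82.3 CPM with a median of 63.9 (log2 fold change -0.36). Hes1 was lower after 4-OHT in 5 of 5 mice, with a difference of -1.08 in mouse 19 and -0.05 to -0.21 in the others on the log2(CPM + 0.5) scale. Hes6 was called when Fl/+ 4-OHT mouse 24 was left out (-0.50). Notch3 ran from 162 to 201 CPM untreated (log2 fold change 0.19), Notch2 from 86.4 to 120 CPM (0.07), Dll3 from 45.1 to 118 CPM (0.00) and Jag1 from 8.14 to 13.4 CPM (0.33). The Jag1 value was 0.14 when Fl/+ 4-OHT mouse 24 was left out. Dll3 had nearly the same mean in both groups, 77.2 and 77.4 CPM, with a SD of 28.3 and 29.2 CPM.

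Fl/Fl 4-OHT cultures were also set against Fl/+ untreated cultures, a comparison in which the drug and the genotype differ together and which shares libraries with both others. 5 of the 10 genes were called, beside 30.7% of 15032 genes tested (2357 higher and 2263 lower, or 3150 and 1603 when scaled by library size alone). Under that scaling 5 members were called as well, with Notch2 gained (0.35) and Dll3 lost (-0.58). Hes5 (log2 fold change -2.88, SE 0.36), Dll1 (-0.89, SE 0.17), Dll3 (-0.67, SE 0.23) and Hes6 (-0.63, SE 0.15) fell, and Jag1 rose (0.71, SE 0.21). Their adjusted p-values in edgeR's quasi-likelihood test were 0.000322, 0.00250, 0.0494, 0.00839 and 0.0261. Hes5 was 7.36-fold lower, from a mean of 73.5 to 9.89 CPM, and Dll1 was 1.86-fold lower. For Hes5, Dll1 and Hes6 the groups did not overlap, which was so for 23.1% of all genes tested. The members had a median log2 fold change of -0.27, beside 0.00 over all genes. Without mice 29, 36 and 39 Hes5 and Dll1 were called, beside 18.7% of all genes.

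Notch1 did not pass the test here (log2 fold change -0.21, SE 0.11, edgeR quasi-likelihood adjusted p = 0.148). Its mean was 278 ± 22.7 CPM in Fl/+ untreated, 365 ± 20.4 CPM in Fl/+ 4-OHT and 238 ± 32.1 CPM in Fl/Fl 4-OHT cultures (SD, n = 5 each). The same held for Hey1, with means of 114 ± 31.0, 146 ± 14.9 and 106 ± 13.6 CPM and a log2 fold change of -0.09 (SE 0.18), and for Notch3, with -0.07 (SE 0.085). The 3 genes were thus lower in Fl/Fl 4-OHT than in Fl/+ 4-OHT cultures, while their difference from untreated cultures did not pass the test. Hey1 measured -0.46 within mice 19 to 29, where it was called (edgeR quasi-likelihood adjusted p = 0.00903), and 0.54 within mice 35 to 39, where it was not. Mice 19 to 29 alone gave 7 called members, Dll1, Dll3, Hes1, Hes5, Hes6 and Hey1 lower and Notch2 higher, beside 32.0% of all genes. Hes5, Dll1 and Hes6, by contrast, had their highest mean in Fl/+ untreated and their lowest in Fl/Fl 4-OHT cultures, with 73.5, 20.1 and 9.89 CPM for Hes5, 145, 112 and 77.3 CPM for Dll1 and 120.5, 92.2 and 77.2 CPM for Hes6. Jag1 and Notch2 had the reverse order of means, 11.01, 13.8 and 17.8 CPM for Jag1 and 95.8, 100.1 and 113 CPM for Notch2.

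Jag1 and Dll3 depended on single libraries. The Jag1 call was lost without Fl/+ untreated mouse 19 (0.64), Fl/Fl mouse 37 (0.55) or Fl/Fl mouse 39 (0.68). Its 5 Fl/Fl values of 11.6 to 24.9 CPM overlapped with untreated values of 8.14 to 13.4 CPM through mouse 27 alone. Of the fits that left out 1 library, the Dll3 call was kept in those without untreated mouse 35 or 36. It was lost without untreated mouse 19 (-0.64), 24 (-0.66) or 26 (-0.46) and without Fl/Fl mouse 27 (-0.69), 28 (-0.73), 29 (-0.72), 37 (-0.61) or 39 (-0.59). It was also lost under library size scaling, both other filters on low counts, all 15 libraries in one fit and labelled sex as a covariate, with adjusted p of 0.0502 to 0.0885 in edgeR's quasi-likelihood test. Notch2, which did not pass with all libraries (0.26, edgeR quasi-likelihood adjusted p = 0.0826), was called without untreated mouse 35 (0.34), under library size scaling (0.35) and within mice 19 to 29 (0.29).

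A wider list of 41 other Notch pathway genes and 4 proneural genes was read from the same fits. After Trrap deletion 11 of the 40 pathway genes tested were called, 4 higher and 7 lower, which is 27.5% beside the 31.7% of all genes, and the median log2 fold change of the 40 was 0.10. Scaled by library size alone, 6 of the pathway and proneural genes were higher and 6 lower. Of the nuclear effectors, Rbpj, the DNA-binding partner of the receptor's intracellular domain, fell by 0.42 on the log2 scale (SE 0.11), from 25.1 ± 3.04 to 18.7 ± 2.12 CPM. Its coactivators Maml1 and Maml2 also fell, with log2 fold changes of -0.38 (SE 0.067) and -0.31 (SE 0.078), so 3 of 4 effectors fell. The remaining effector, Maml3, did not pass the test, at 1.05 (SE 0.46) and from 0.95 ± 0.64 to 1.95 ± 0.97 CPM. Spen, a corepressor that binds Rbpj, fell (-0.58, SE 0.10). Among the 5 γ-secretase subunits the catalytic Psen2 rose (0.94, SE 0.18), from 8.86 ± 1.78 to 16.8 ± 3.78 CPM, and the other 4 did not pass the test.

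Of 12 genes of endocytosis and ubiquitin transfer, Neurl1b, a ligase that acts on ligands, fell (-0.71, SE 0.24), and Dtx2, of the Deltex family, rose (0.34, SE 0.11). The related Notch inhibitors Numbl and Numb went opposite ways, Numbl down (-0.66, SE 0.18) and Numb up (0.27, SE 0.088). Fabp7, a fatty acid binding protein of radial glia that is controlled by Notch, fell from 2934 ± 451 to 1905 ± 261 CPM (-0.61, SE 0.13), and the other 3 targets tested did not pass the test. The low Notch4 receptor rose from 1.88 ± 0.362 to 3.003 ± 0.377 CPM (0.70, SE 0.18). None of the 2 further ligands, 3 non-canonical ligands, 5 glycosyltransferases and 3 proteases passed the test, nor did the 2 proneural genes tested. The adjusted p-values of the 11 called genes lay between 0.00187 (Maml1) and 0.0431 (Neurl1b) in edgeR's quasi-likelihood test. Without mice 29, 36 and 39, 5 of them were called (Maml1, Spen, Psen2, Notch4 and Numbl). Numb and Maml3 were named after their values had been seen, and the others by a rule on the size of the change.

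**Figure D5:**
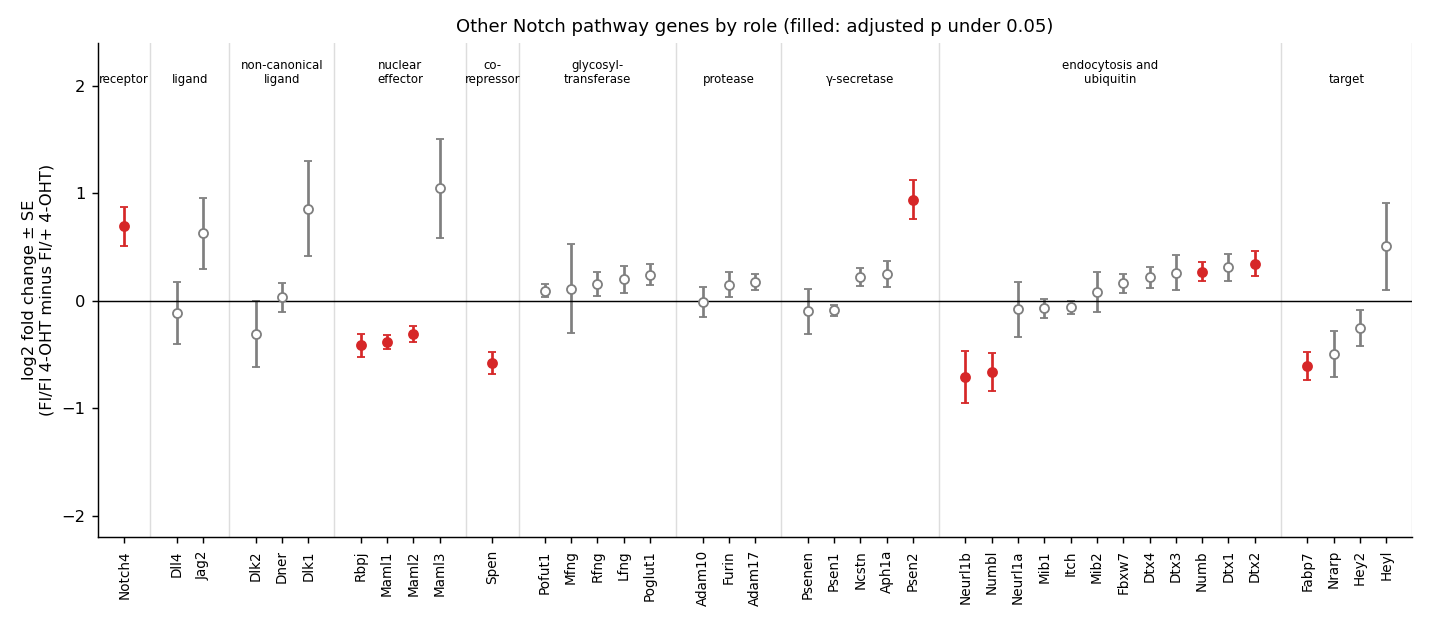
Log2 fold change ± SE (y axis) of the 40 other Notch pathway genes tested in the Trrap deletion comparison, grouped by role along the x axis; red filled points were called by edgeR at 0.05. Filled points lie on both sides of 0, with Psen2 the highest at 0.94 and Neurl1b the lowest at -0.71.

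Between Fl/+ 4-OHT and Fl/+ untreated cultures, 2 of the 41 pathway genes were called, both lower, which is 4.88% beside the 13.8% of all genes. Nrarp, a feedback inhibitor that Notch induces, went down from 120 ± 27.1 to 61.2 ± 17.7 CPM (log2 change -0.97, SE 0.20, edgeR quasi-likelihood adjusted p = 0.0101). Dner, a non-canonical ligand, fell from 181 ± 56.7 to 95.2 ± 12.0 CPM (-0.93, SE 0.19, adjusted p = 0.0104). With the mouse as a block 7 were called, 3 higher and 4 lower, beside 25.7% of all genes. The added genes were named after their values had been seen. Dll4 (log2 fold change 1.34), Dlk1 (1.19) and Itch (0.26) were higher, and Mfng (-0.82) and Dtx1 (-0.40) were lower. Dll4 was near the floor, at 0.11 to 0.73 CPM untreated and 0.67 to 1.52 CPM after 4-OHT. So was Dlk1, at 0.10 to 2.46 and 0.76 to 2.95 CPM. Between Fl/Fl 4-OHT and Fl/+ untreated cultures 11 of 40 pathway genes were called, 4 higher and 7 lower, which is 27.5% beside the 30.7% of all genes. Scaling by library size alone turned this balance, with 10 of the pathway and proneural genes higher and 5 lower.

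Some markers of other cell types differed between the groups, to be read beside the 31.7% of all genes called after Trrap deletion, 13.8% after 4-OHT and 30.7% between Fl/Fl 4-OHT and Fl/+ untreated cultures. After Trrap deletion none of the oligodendrocyte lineage, ependymal, endothelial, mural or microglia markers tested was called. In Fl/+ untreated, Fl/+ 4-OHT and Fl/Fl 4-OHT libraries 10 neuron markers summed to 866 to 1140, 827 to 1012 and 565 to 815 CPM. Map2 alone made up 748.6 to 968, 738.5 to 870.5 and 512 to 782 CPM of these sums. Dcx and Tubb3 were the 2 of 8 tested (25.0%) that fell with Trrap deletion. Between Fl/Fl 4-OHT and Fl/+ untreated cultures, where Hes5 had its log2 fold change of -2.88, 6 of 8 neuron markers fell, and the median of the 8 was -1.26. In the same comparison 6 of 10 oligodendrocyte lineage markers rose and 1 fell (median 1.57), 3 of 4 ependymal markers rose (median 1.49), 1 of 8 astrocyte markers rose and 3 fell, 1 of 5 mural cell markers rose, and 3 of 10 neural stem cell markers fell. Of 10 oligodendrocyte lineage markers 6 rose after 4-OHT. The sum of the 10 ran from 3462 to 4511 CPM untreated and 3371 to 4659 CPM after it. Olig1, which was not called, made up 2269 to 2761 and 1453 to 2427 CPM of it, so lower markers weigh little in the sum. The ependymal markers Rarres2 and Dynlrb2 were also called after 4-OHT, 1 higher and 1 lower, as were the endothelial Flt1 and the mural Cspg4, both higher, and the neuronal Gad1, which was lower. The oligodendrocyte lineage sum in Fl/Fl 4-OHT cultures ran from 3587 to 5403 CPM, of which Olig1 made up 1698 to 2076 CPM. The sum of 8 astrocyte markers ran from 3484 to 4793, 4131 to 5350 and 3591 to 7451 CPM in the 3 groups in the same order, with 1 higher and 3 lower after 4-OHT and 1 higher with Trrap deletion. Ependymal markers summed to 30.5 to 67.4, 44.2 to 100.5 and 81.3 to 107 CPM, with Tmem212 at 0 in every library. Mural cell markers summed to 76.4 to 125, 123 to 216 and 100.4 to 158 CPM, of which Cspg4, also in the oligodendrocyte lineage list, made up 59.8 to 117, 112 to 211 and 72.8 to 149 CPM; Pdgfrb, Rgs5, Acta2 and Tagln reached at most 15 CPM each. Endothelial markers summed to 13.2 to 26.0, 21.6 to 63.8 and 22.2 to 48.4 CPM, with Cdh5 and Cldn5 at 3 counts or fewer everywhere. Microglia markers reached at most 2.01 CPM, with Aif1, Cx3cr1, Ptprc and Tmem119 at 3 counts or fewer everywhere. The 10 neural stem cell markers summed to 7578 to 9673, 7642 to 8775 and 6752 to 10860 CPM, with 2 lower after Trrap deletion and 1 higher and 2 lower after 4-OHT. Mitochondrial transcripts took 1.72% to 3.56%, 0.849% to 1.74% and 1.36% to 2.19% of the counts. The part of these differences in the results above was not tested.

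Within groups, some pairs of members varied together and others did not. As deviations of log2(CPM + 0.5) from the group means over the 15 libraries, Dll3 and Hes5 had a Pearson r of 0.82, Notch1 and Notch3 of 0.81, Hes1 and Hes6 of 0.75 and Dll1 and Hes5 of 0.71. Of the 45 pairs, 15 had a negative r, the lowest being Jag1 with Hes5 at -0.53, Notch2 with Dll3 at -0.48 and Notch2 with Hes5 at -0.41. Of 13333 genes compared, Ptprs (0.89), Pvalb (0.82) and Notch3 (0.81) were most like Notch1, and Taf1c (0.94), Cxxc1 (0.93) and Ccar2 (0.92) most like Dll1. Fibp (0.95), 0610012G03Rik (0.94) and Hmg20b (0.93) were most like Hes1, and Pwwp2a (0.93), Exosc10 (0.91) and Gm14662 (0.90) most like Hes5. These are descriptions over 15 libraries of 10 mice that share depth, culture and, for the Fl/+ groups, the mouse.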

How the data were processed

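From 15 aNSC cultures the authors made stranded poly(A) RNA libraries, which were pooled and read single-end. They mapped the reads to GRCm38 with STAR 2.5.4b and assigned unique reads to Ensembl genes with featureCounts 1.5.0, counting by strand. What they deposited are these raw read counts, without normalization. Multimapping reads were left out, and PCR copies were counted, so p-values carry no correction for them.

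The table held 53801 genes and 15 columns, all used. Symbols, coordinates and exon lengths were matched by Ensembl ID to a GENCODE annotation of GRCm38, which covered 53706 genes. Groups, sex and mouse number came from the labels. The labels and the methods describe the 4-OHT exposure differently, so no dose is given and the days are credited to the labels. Each comparison was fitted on its own 10 libraries with edgeR 4.0.16 in R 4.3.3: filterByExpr (minimum count 10), TMM scaling, the quasi-likelihood F test without covariates and Benjamini-Hochberg adjustment over all genes tested, called under 0.05. CPM use TMM-scaled library sizes over the 15 libraries. The SE is the log2 fold change divided by the square root of its F. Exact tests used log2(CPM + 0.5): the permutation test has 252 arrangements and a smallest p of 0.00794, which the genes whose groups did not overlap reached, and the sign-flip test has 32. The script was tested on simulated counts.

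The Fl/+ cultures with and without 4-OHT share their 5 mice. Deviations from the group means correlated between cultures of 1 mouse with r of 0.153 to 0.634 and between different mice with -0.559 to 0.350, so an alternative fit has the mouse as a replicate block. Other alternatives were DESeq2 1.42.0 (its Wald test, and edgeR with its size factors), library size scaling, other filters, 1 fit of all 15 libraries, labelled sex or mouse number range as covariates, each range alone, each library left out, and a pseudocount of 2. Mouse numbers 19 to 29 and 35 to 39 are not called a batch in the labels.

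The members, the lists and the tests were chosen with earlier results of these data known. Of the wider lists, 2 genes are not reported here and stay out of the lists' counts. Named genes are the members, Trrap, of the other pathway and proneural genes at most the 10 called with the largest log2 fold change in the Trrap deletion and 4-OHT comparisons, and for 4 members the 3 genes with the highest r among those with a mean of at least 1 CPM. Beyond this rule, Numb, Maml3 and the pathway genes that the mouse block added were named after their values had been seen. Promoter letters were searched on both strands, with overlaps allowed, in RefSeq windows of 300 bases, which matched 8 of the 10 members.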

Additional observations from a re-analysis of the deposited data

Results flagged for a closer look

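In 4 of 30 groups of 5 libraries, 1 library of a member lay far from the other 4 by Dixon's gap test, where chance alone marks about 1 group in 20. Notch2 stood at 119.6 CPM in the untreated culture of Fl/+ mouse 35, above 86.4 to 93.2 CPM in the other untreated cultures, and at 134 CPM in Fl/Fl mouse 39, above 104 to 113 CPM in the other Fl/Fl cultures. Dll1 stood at 48.1 CPM in Fl/Fl mouse 37, below 78.2 to 89.5 CPM in the others. Jag1 stood at 21.2 CPM in the 4-OHT culture of Fl/+ mouse 24, above 10.5 to 13.4 CPM in the others.

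The 4-OHT effect on Notch2 had opposite signs by labelled sex. It averaged 0.31 on the log2(CPM + 0.5) scale in the 2 females (mice 24 and 26) and -0.14 in the 3 males (mice 19, 35 and 36), with every mouse on the side of its sex. This difference was not tested, and mouse 36 carries Xist reads against its label.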

How the results depend on the processing

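With 1 library left out, 3 to 6 members were called after Trrap deletion (3 without Fl/+ 4-OHT mouse 26 or Fl/Fl mouse 28) and 3 to 6 between Fl/Fl 4-OHT and Fl/+ untreated cultures (3 without untreated mouse 19, Fl/Fl mouse 37 or Fl/Fl mouse 39). Of the other pathway and proneural genes together, 11 were called after Trrap deletion, 2 after 4-OHT (2 to 5 with 1 library left out, 5 without untreated mouse 36 and 4 without Fl/+ 4-OHT mouse 26) and 11 in the last comparison (9 to 17 with 1 library left out, 17 without untreated mouse 36). Mice 35 to 39 alone (2 against 2) gave 0 members and 0 other pathway genes after Trrap deletion, where edgeR called none of the 15159 genes and 4380 had an unadjusted p under 0.05, and 0 and 0 against untreated cultures, where 3 of 15077 genes were called. Mice 19 to 29 alone gave 6 other pathway genes and 2780 called genes of all tested after Trrap deletion, against 4773 with all mice. With mice 29, 36 and 39 left out, an alternative chosen after the data had been seen, the counts were 1 member and 5 others after Trrap deletion, 4 others after 4-OHT, and 2 members and 7 others against untreated cultures, while 2384 and 2865 genes were called in the first and last comparison. These fits have fewer libraries.

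In the 4-OHT comparison the replicate block raised the calls from 2044 to 3809 genes, and gave 7 other pathway genes and 3 members, Dll1 being added (adjusted p = 0.00633 in edgeR's quasi-likelihood test); it changed no other member's call. The range of mouse numbers as a covariate called 3170 genes and labelled sex 2933, mice 19 to 29 alone 1242, mice 35 and 36 alone 1063, and fits with 1 library left out 1271 (Fl/+ 4-OHT mouse 19) to 2522; without Fl/+ 4-OHT mouse 35 it was 1311. Members called were 4 with labelled sex and 5 with the range of mouse numbers as a covariate, and 1 in each range alone. Other pathway genes called were 4 with library size scaling, 5 with DESeq2, 6 with all 15 libraries in one fit, 6 with labelled sex and 4 with the range. Against untreated cultures the range as a covariate gave 18. The cause was not tested.

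Signs turned in 1 or more of the alternatives run for 6 pairs of a member and a comparison. All were of members that had not passed the test in that comparison. After Trrap deletion Jag1 was -0.022 within mice 19 to 29, and Hes1 was -0.10 without mice 29, 36 and 39 and -0.054 to 0.088 with 1 library left out. After 4-OHT Notch2 was -0.040 within mice 35 and 36 and -0.027 to 0.18 with 1 library left out. Dll3 was -0.0028 with DESeq2 size factors, -0.068 within mice 19 to 29, -0.0195 without mouse 36, and -0.20 to 0.21 with 1 library left out. Against untreated cultures Notch3 was 0.024 with library size scaling and 0.081 within mice 35 to 39, and Hey1 was 0.54 there and -0.22 to 0.0073 with 1 library left out. With the pseudocount of 2 every exact permutation p of the 10 members stayed on its side of 0.05. The lowest count of a member in any library was 131, so depth limits the low genes of the wider list, such as Notch4, more than the members.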
